A study of Drosophila melanogaster with 4 samples.

Results

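The HP1 family and H3K9 methylation genes of Drosophila melanogaster were followed here in BG3 cells after knockdown of Cap-H2. They were 10 genes chosen by name, namely the genes of the HP1 paralogs HP1a (also known as Su(var)2-5), HP1b and HP1c, the HP1 partners HP4, HP5 and Su(var)3-7, the H3K9 methyltransferase genes Su(var)3-9, egg and G9a, and the satellite DNA binder prod. All 10 had a row among the 8806 genes and transposable element families measured, and all 10 passed the minimum mean of 10 normalized reads. RNA was sequenced from 2 libraries of cells treated with dsRNA against Brown, an eye pigment gene used as control target, and 2 libraries of cells treated with dsRNA against Cap-H2, a subunit of condensin II. Per the labels, the control genotype is WT and the other CapH2 Knockdown. Both groups were the same cultured line and were exposed to 20 µg of dsRNA for 30 min and then grown for 4 days. Since nothing in the labels ties the 2 libraries of each group to separate cultures, the p-values cover the spread between the libraries only, and that spread may be technical. The study asked what depletion of condensin II does to gene expression.

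In heterochromatin, histone H3 is methylated on lysine 9, and HP1 proteins bind that mark with their chromodomain and recruit further partners with their chromoshadow domain. Su(var)3-9 deposits the mark mainly in pericentric regions, egg (the SETDB1 homolog) has a major part on the small chromosome 4 and in the germline, and G9a acts mainly in euchromatin. HP1a is the classical dose-dependent factor of position effect variegation, the patchy silencing of genes placed next to heterochromatin. Condensin II compacts chromosomes, and loss of Cap-H2 in flies is known to alter chromosome territories and homolog pairing.

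Reads on genes and element families numbered 21539511 to 21935781 per library. Cap-H2 mRNA stood at 880 and 873 normalized reads in the controls against 543 and 555 after knockdown, or 62.7% of the control (limma adjusted p = 1.5e-05), so the knockdown was partial at the RNA level. BG3 cells derive from larval nervous tissue. Of 8 neuron markers, 3 reached a mean of 10 normalized reads. The neuronal RNA-binding protein gene elav stood between 531 and 577 over the 4 libraries, and the complexin gene cpx, a synaptic gene, between 400.1 and 445. The synaptic genes nSyb and brp stayed at 4.0 or below, Syn stood between 8.0 and 19.3, and Appl between 3.0 and 11.0. Among the hemocyte markers, the transcription factor gene srp stood between 5928 and 6374 and the collagen genes Col4a1 and vkg between 42173 and 67068, drpr between 8862 and 9466 and Pxn between 655 and 726. Hml, a defining hemocyte gene, was at 339 and 287 in the control and 221 and 239 in the knockdown. Both knockdown libraries thus lay below both controls, as they did in 19.5% of all tested rows. NimC1, another defining hemocyte gene, stayed at 7.9 or below. The summed level of the 6 neuron markers with a row was 955 to 984 in the control and 1024 to 1049 in the knockdown, and that of the 7 hemocyte markers with a row was 124035 to 126890 and 124712 to 126263. Over the 4 libraries the markers of glia summed to 5349 to 5832, of muscle to 7026 to 7710, of germline to 2203 to 2325 and of neuroblasts to 194 to 230. Single genes made up most of the first 3 sums. These were moody (5128 to 5626) for glia, Act57B (4081 to 4822) and Mef2 (2800 to 2934) for muscle, and krimp (2027 to 2107) for germline. The glial gene repo stayed at 90.5 or below and the muscle gene Mhc at 12.0 or below. The part of these cell types in the results was not tested.

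None of the 10 heterochromatin genes passed an adjusted p of 0.05 between the groups. With limma, 0 of 10 passed, where 0.39% of all 7690 tested rows passed (30 rows), and 3 of the 10 had an unadjusted p under 0.05, where 8.13% of all rows had one. The count model edgeR passed 0 of 10, where it passed 0.364% of all rows, with 3 at an unadjusted p under 0.05, where 8.36% of all rows had one. DESeq2 passed 0 of 10, where it passed 0.585% of all rows, with 0 at an unadjusted p under 0.05, where 2.86% of all rows had one, though it gave 8 of the 10, and 6112 of all tested rows, no adjusted p. The 3 were HP1a, G9a and prod, and their number was 0 with median centring, 0 without knockdown library 1, and 1 without any other single library. The knockdown level, estimated as a percentage of the control, ran from 91.7% for prod to 104.5% for Su(var)3-7. The lowest bound of any 95% interval was 84.3%, for prod, and the highest was 112%, for Su(var)3-7. These intervals are not adjusted for the number of genes. In bulk RNA, fewer cells that express a gene and less RNA per cell cannot be told apart.

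The small differences were mostly in 1 direction. A log2 fold change below 0 was found for 9 of the 10, where 50.1% of all tested rows had one. With median centring or quantile normalization HP1b turned and 8 of the 10 were below 0, where 42.7% and 50.4% of all tested rows were. The median was -0.05 for the 10 genes and 0.00 for all tested rows. Without knockdown library 1 only 7 of the 10 were below 0 (49.9% of all tested rows), and the median of the 10 was -0.03. Without control library 1 or without control library 2, 8 of the 10 were below 0 (50.7% and 50.4% of all tested rows). In 7 of the 10 both knockdown libraries lay below both control libraries, where 19.5% of all rows did so, and in 1 of the 10 both lay above, where 19.2% did. The 10 genes were picked with earlier results of these data known, so these counts are a description and carry no test.

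**Figure D1:**
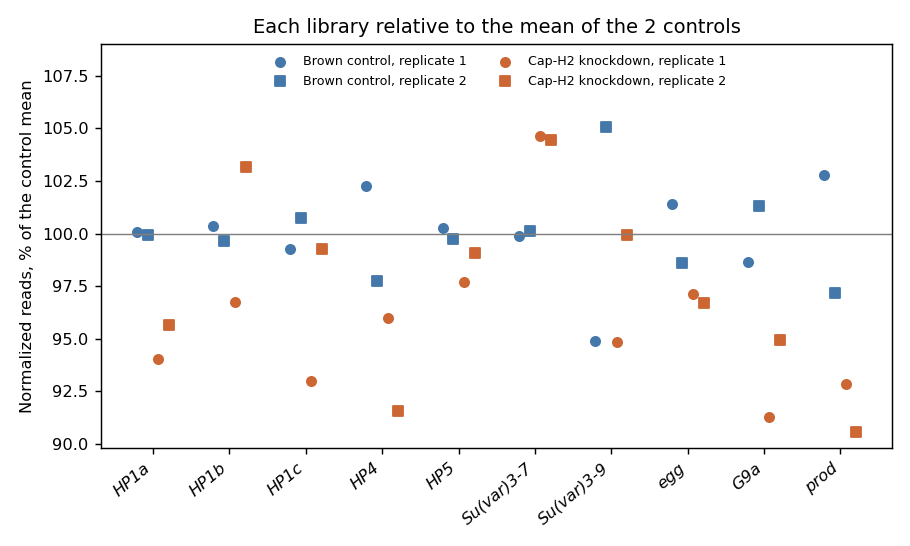
Normalized reads of each heterochromatin gene in each library, as a percentage of the mean of the 2 control libraries (y axis, not starting at 0). Points are single libraries, blue for the Brown control and orange for the Cap-H2 knockdown, and the orange points lie below both blue points for 7 genes and above them for Su(var)3-7 alone.

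Among the HP1 paralogs, HP1a (FBgn0003607, dm6 2L, 8209626 to 8211122, minus strand) is the main reader of H3K9 methylation in pericentric heterochromatin. Its gene had 4718 and 4713 normalized reads in the control and 4434 and 4511 in the knockdown. Both knockdown libraries lay below both controls, while the controls differed from each other by 0.00 on the log2 scale and the knockdown libraries by 0.02. The estimated knockdown level was 94.8% of the control (95% interval 90.3% to 99.6%), or -0.08 as a log2 fold change (SE 0.03, limma unadjusted p = 0.035, adjusted p = 0.57).

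HP1b (FBgn0030082, X, 9081063 to 9082746, plus strand), a paralog found in both euchromatin and heterochromatin, had 851 and 845 normalized reads in the control and 821 and 875 in the knockdown. The knockdown libraries lay on either side of the controls. Its estimated level was 99.9% of the control (95% interval 91.7% to 109%, log2 fold change -0.00, SE 0.06, adjusted p by limma = 0.997). HP1c (FBgn0039019, 3R, 22745620 to 22746605, plus strand), the mainly euchromatic paralog, had 507 and 514 normalized reads in the control and 475 and 507 in the knockdown. Its second knockdown library fell short of the lower control library by less than 1 normalized read, so the groups barely separated. The estimated level was 96.1% of the control (95% interval 86.3% to 107%, limma adjusted p = 0.88). Exons of HP1c share 160 of 986 bp with CG17141 on the opposite strand, and the strand setting of the counting is not known here. CG17141 had 130 and 139 normalized reads in the control and 122 and 125 in the knockdown.

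HP1a made up most of the paralogs' RNA. Per kb of exon, the HP1a gene took 80.3% and 80.2% of the summed level of the 3 paralogs in the control and 80.1% and 79.3% in the knockdown. HP1b took 9.98% to 10.7% and HP1c 9.64% to 10.0% over the 4 libraries. Both knockdown libraries had a lower HP1a share than both controls, by at most 1 percentage point.

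HP4, HP5 and Su(var)3-7 encode proteins that bind HP1a and locate to heterochromatin. HP4 (FBgn0035829, 3L, 7975438 to 7976154, minus strand) had 790 and 755 normalized reads in the control and 742 and 708 in the knockdown. The groups did not overlap, but the libraries within each group differed by 0.07 on the log2 scale, and the log2 fold change between them was -0.09 (SE 0.06), with a limma adjusted p of 0.73. HP5 (FBgn0030301, X, 11454786 to 11459227, plus strand) had 1430 and 1422 normalized reads in the control and 1393 and 1413 in the knockdown. The groups separated by a narrow margin. After HP1b it was the closest of the 10 to its control level, at 98.4% (95% interval 92.0% to 105%, limma adjusted p = 0.93).

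Su(var)3-7 (FBgn0003598, 3R, 13264364 to 13270038, plus strand), a zinc-finger protein gene and a dose-dependent modifier of variegation like the HP1a gene, was the 1 gene of the 10 with a higher level in the knockdown. It had 1460 and 1463 normalized reads in the control and 1530 and 1527 in the knockdown. The libraries within each group were nearly equal, differing by 0.00 on the log2 scale in both groups, and the groups did not overlap. Its level was 104.5% of the control (95% interval 97.9% to 112%, log2 fold change 0.06, SE 0.04, adjusted p by limma = 0.75). limma's error, which borrows from the spread of other genes, was wider than the spread of these 4 values. Exons of Su(var)3-7 share 693 of 5051 bp with TBC1D5 on the opposite strand, which had 483 and 498 normalized reads in the control and 454 and 489 in the knockdown.

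Of the H3K9 methyltransferases, G9a (FBgn0040372, X, 245978 to 254650, plus strand) stood furthest from its control. It had 1931 and 1983 normalized reads in the control and 1786 and 1858 in the knockdown, with no overlap between the groups. The estimated level was 93.1% (95% interval 87.4% to 99.2%, log2 fold change -0.10, SE 0.04, limma unadjusted p = 0.030, adjusted p = 0.55). egg (FBgn0086908, 2R, 24775534 to 24779901, minus strand) had 3547 and 3449 normalized reads in the control and 3398 and 3383 in the knockdown. The groups did not overlap, and the level was 96.9% of the control (95% interval 92.0% to 102%, limma adjusted p = 0.80). Exons of egg share 629 of 3937 bp with an antisense RNA gene, asRNA:CR44067, which had 20.7 and 25.0 normalized reads in the control and 16.0 and 15.2 in the knockdown.

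Su(var)3-9 (FBgn0263755, 3R, 15259864 to 15263458, minus strand), the founding H3K9 methyltransferase gene, had 574 and 635 normalized reads in the control and 573 and 604 in the knockdown. The groups overlapped, and the control libraries differed by 0.15 on the log2 scale, more than the difference between the groups of -0.04 (SE 0.07), for which limma gave an adjusted p of 0.93. Su(var)3-9 is known for sharing its first exons with the translation factor gene eIF2gamma. The annotation places 352 of its 2386 exonic bp in eIF2gamma on the same strand, so reads there cannot be assigned to either gene with certainty. eIF2gamma had 3490 and 3607 normalized reads in the control and 3600 and 3522 in the knockdown (log2 fold change 0.01, SE 0.04, adjusted p by limma = 0.99). Per kb of exon, egg took 61.9% to 64.0% of the summed level of the 3 methyltransferase genes over the 4 libraries, G9a 18.3% to 19.3% and Su(var)3-9 17.1% to 18.8%. The groups overlapped in the shares of egg and Su(var)3-9, while the share of G9a was lower in both knockdown libraries than in both controls.

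prod (FBgn0014269, 2R, 18969404 to 18971133, minus strand) encodes a protein that binds a satellite repeat of the large autosomes and helps to bundle chromosomes into chromocenters. It had 942 and 890 normalized reads in the control and 851 and 829 in the knockdown, with no overlap. At 91.7% of the control it had the largest estimated difference of the 10 (95% interval 84.3% to 99.8%, log2 fold change -0.12, SE 0.06, limma unadjusted p = 0.046, adjusted p = 0.61). The control libraries differed from each other by 0.08 on the log2 scale and the knockdown libraries by 0.04.

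**Figure D2:**
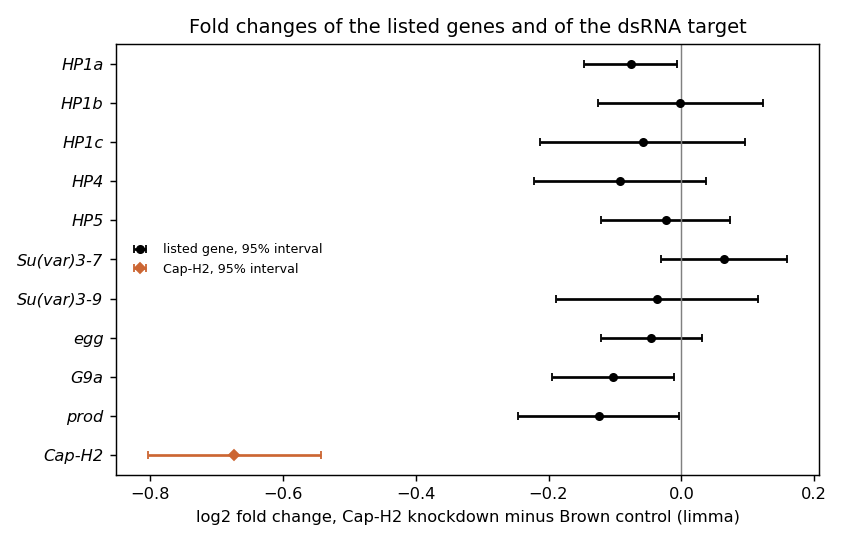
log2 fold change of each heterochromatin gene and of Cap-H2 between the Cap-H2 knockdown and the Brown control (x axis), with 95% intervals from limma that are not adjusted for the number of genes. The 10 genes lie between -0.12 and 0.06, and the intervals of HP1a, G9a and prod end just below 0, while Cap-H2 lies at -0.67.

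The levels of the 10 genes covered a wide range. On the scale of normalized reads per kb of exon, the HP1a gene stood at 4252 ± 3.64 in the control (SD, n = 2) and at 4033 ± 48.8 in the knockdown (SD, n = 2), 3.95 times the next gene in the control. HP4 followed at 1078 ± 34.4 and egg at 889 ± 17.6 in the control (SD, n = 2 each). prod, HP1b and HP1c formed a middle group at 574 ± 22.8, 531 ± 2.60 and 518 ± 5.32 in the control (SD, n = 2 each), and neighbours within it overlapped over the 4 libraries. HP5 came next at 367 ± 1.32 and Su(var)3-7 at 289 ± 0.452 in the control (SD, n = 2 each). G9a and Su(var)3-9 had the lowest levels, 270.4 ± 5.09 and 253 ± 18.2 (SD, n = 2 each), and overlapped with each other. All other neighbours in this order were separate in all 4 libraries. HP1a thus stood above 96.9% of the tested genes with a known exon length, and Su(var)3-9 above 42.6% of them. Exon length here is the union over all annotated transcripts, between 1 and 3 per gene, which understates the level of a gene that uses its shorter transcripts. For Su(var)3-9 it includes the 352 of 2386 bp shared with eIF2gamma on the same strand, where reads cannot be assigned with certainty. The level of Su(var)3-9, its last place in this order and its share among the methyltransferase genes are therefore uncertain.

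**Figure D3:**
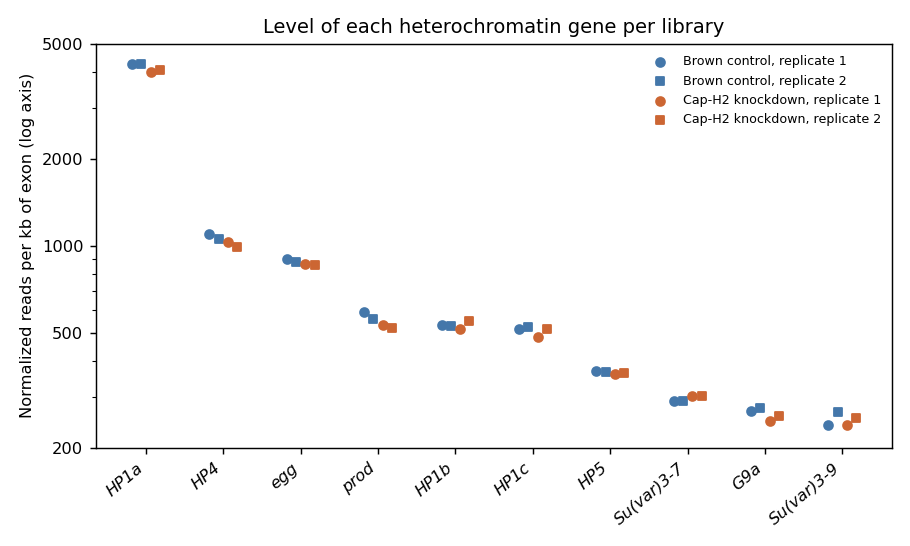
Normalized reads per kb of exon for each heterochromatin gene (y axis, log scale), ordered by the control mean. Points are single libraries, and the spread among the 4 libraries of a gene is small beside the distance between HP1a, at 3998 or above, and the other genes, at or below 1102.

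With 2 libraries a group, single libraries still mattered for some of the values. Leaving out each library in turn gave 0 of 10 calls in every case. HP1b turned to log2 fold changes of 0.045 without knockdown library 1 and 0.004 without control library 1. Su(var)3-9 ranged from -0.11 without control library 1 to 0.037 without control library 2, HP1c from -0.10 to -0.01 without knockdown library 2 and 1 respectively, and prod from -0.16 to -0.08 without control library 2 and 1 respectively. HP4 ranged from -0.13 without knockdown library 1 to -0.06 without knockdown library 2, egg from -0.07 without control library 2 to -0.02 without control library 1, and G9a from -0.13 without knockdown library 2 to -0.07 without knockdown library 1. HP1a stayed between -0.09 and -0.06, HP5 between -0.03 and -0.01 and Su(var)3-7 at 0.06 to 0.07. In the authors' deposited table, the adjusted p was 0.999 for each of the 10 genes.

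**Figure D4:**
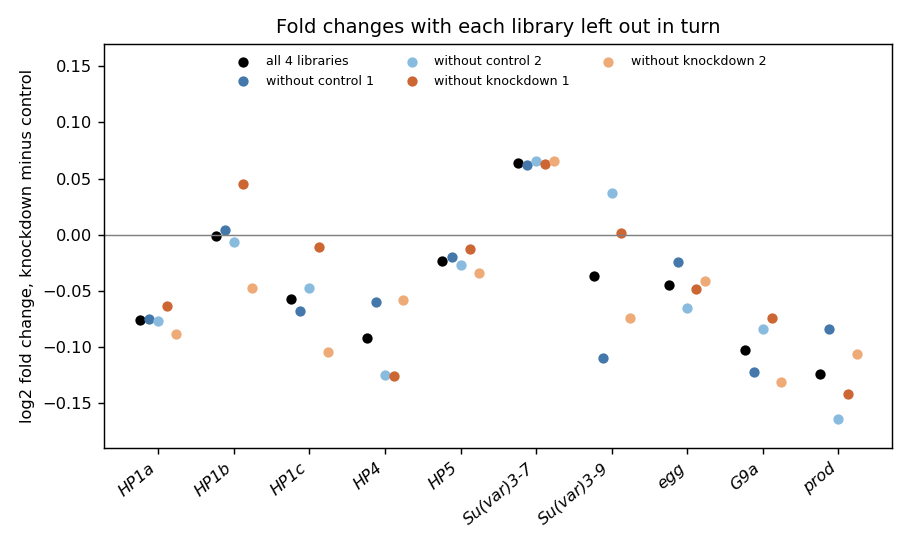
log2 fold change of each heterochromatin gene with all 4 libraries (black) and with each library left out in turn (y axis). Values of HP1a and Su(var)3-7 lie close together, whereas those of HP1b and Su(var)3-9 cross 0.

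The rows whose profile over the 4 libraries lay closest to that of the HP1a gene were not on the heterochromatin lists. Among 4406 other rows with a mean of at least 500 normalized reads, the 3 with the smallest root mean square difference from it on the centred log2 scale were Orp8, CG16903 and Bap170, at 0.005, 0.006 and 0.007. G9a was the closest of the other 9 heterochromatin genes, at 0.023, and ranked at place 225, with egg at 260. In all, 165 rows lay within 0.02, so this likeness over 4 libraries singles out no gene.

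Other proteins known to bind HP1 or heterochromatin are listed as a second group. Of 18 such genes 15 were tested, and limma passed 0 of 15, where it passed 0.39% of all rows, edgeR 0 (0.364% of all rows) and DESeq2 0 (0.585% of all rows, with no adjusted p for 6 of the 15). At an unadjusted p under 0.05 by limma there were 3 of 15, 2 of them lower, where 8.13% of all rows had one. The median log2 fold change was -0.04, and 9 of 15 were below 0, where 50.1% of all rows were. The median moved to -0.01 without control library 1, -0.06 without control library 2, -0.02 without knockdown library 1 and -0.06 without knockdown library 2. woc, a zinc-finger protein gene whose product forms a complex with HP1c, had 6555 and 6481 normalized reads in the control and 6064 and 6159 in the knockdown (log2 fold change -0.09, SE 0.03, adjusted p by limma = 0.37). Rif1, a replication timing factor found at late replicating satellites, had 1586 and 1565 in the control and 1460 and 1468 in the knockdown (log2 fold change -0.11, SE 0.04, adjusted p by limma = 0.55). In both genes the knockdown libraries lay below both controls. vig went the other way, with 7828 and 8041 in the control and 8490 and 8561 in the knockdown (log2 fold change 0.10, SE 0.03, adjusted p by limma = 0.24), and it passed with a replicate block (adjusted p = 0.043, the lowest of its alternatives, which reached 0.73). vig2, the most abundant per kb of the 15 and a paralog of vig that binds HP1, stood at 9025 and 9039 in the control and 9383 and 9387 in the knockdown, 0.06 apart on the log2 scale (SE 0.03, adjusted p by limma = 0.65). The germline HP1 paralog rhi had the most negative value, -1.02 (SE 0.51, adjusted p by limma = 0.62), from 12.8 and 28.0 normalized reads in the control and 15.0 and 5.08 in the knockdown, which overlap.

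Of 12 cofactors of H3K9 methylation and nuclear silencing, 11 were tested. limma passed 0 of 11, where it passed 0.39% of all rows. At an unadjusted p under 0.05 by limma there were 0 of 11, where 8.13% of all rows had one. edgeR passed 0 (0.364% of all rows) and DESeq2 0 (0.585% of all rows, with no adjusted p for 5 of the 11). The median log2 fold change was -0.02, and it turned to 0.014 without control library 1 and 0.0017 without knockdown library 1. mael, which acts in piRNA-guided silencing, had 133 and 138 normalized reads in the control and 156 and 171 in the knockdown (log2 fold change 0.26, SE 0.13, adjusted p by limma = 0.62). sov, a zinc-finger protein gene needed for HP1-dependent silencing, had a log2 fold change of -0.06 (SE 0.04) and Panx, a piRNA silencing factor gene, of -0.15 (SE 0.11). Panx rested on control library 1 and turned to 0.03 without it. HDAC1, a histone deacetylase gene and the most abundant per kb of this list, stood at 98.5% of the control. The 6 genes of the next list encode histone demethylases, the corepressor CoRest and the kinase JIL-1, and all 6 were tested. limma passed 0 of 6 and edgeR 0 (0.39% and 0.364% of all rows). DESeq2 passed 0 (0.585% of all rows, with no adjusted p for 4 of the 6). By limma 0 had an unadjusted p under 0.05, where 8.13% of all rows had one. Of the 6, 3 had a log2 fold change above 0 and 3 below, where 49.9% and 50.1% of all rows did. The median was -0.02. It turned to 0.06 without control library 2 and 0.02 without knockdown library 1. Leaving out control library 1 gave -0.03 and leaving out knockdown library 2 gave -0.05. The H3S10 kinase gene JIL-1 had a log2 fold change of 0.05 (SE 0.04), the demethylase gene Kdm3 of -0.10 (SE 0.07), and the corepressor gene CoRest, the most abundant per kb of the 6, of -0.07 (SE 0.05), which turned to 0.00 without knockdown library 1.

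Some genes lie within heterochromatin themselves, and several of them are known to need HP1a for full expression. Of 18 genes in pericentric heterochromatin 17 were tested, 12 had a log2 fold change above 0, where 49.9% of all rows had one, and the median was 0.04, which fell to 0.008 without knockdown library 1. limma passed 0 of 17, where it passed 0.39% of all rows, with 3 at an unadjusted p under 0.05, all higher, where 8.13% of all rows had one. edgeR passed 0 (0.364% of all rows), and DESeq2 passed 1, Nipped-B (0.585% of all rows, with no adjusted p for 9 of the 17). Nipped-B, the cohesin loader gene, had 9665 and 10208 normalized reads in the control and 10796 and 11442 in the knockdown. The groups did not overlap, and the log2 fold change was 0.16 (SE 0.04, adjusted p by limma = 0.059), just short of the threshold. Over its alternatives the adjusted p ranged from 9.1e-06 to 0.41, and it passed without control library 2 (2.7e-05) and without knockdown library 1 (0.0063). Leaving out a library leaves an arm of 1, whose spread is then taken from the other group and from the prior over all rows, so such p-values assume that the lone library varies like the others. Parp, which encodes poly(ADP-ribose) polymerase, stood at 2498 and 2621 in the control and 2683 and 2773 in the knockdown, 0.09 higher on the log2 scale (SE 0.04, adjusted p by limma = 0.57). RpL15, a ribosomal protein gene and the most abundant per kb of the list, had 0.02 (SE 0.03).

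Yeti, a gene for a chromatin protein of the BCNT family, had the largest value among the heterochromatic genes, 0.96 on the log2 scale (SE 0.25, adjusted p by limma = 0.14). It had 154 and 386 normalized reads in the control and 475 and 476 in the knockdown. The gap between the 2 control libraries was wider than that between control library 2 and the knockdown, and without control library 1 the log2 fold change was 0.30, against 1.62 without control library 2. Under the same assumption about a lone library, leaving out knockdown library 1 gave an adjusted p by limma of 0.033 and leaving out knockdown library 2 one of 0.024. Yeti also passed without control library 2, where the control is the single value 154, and did not pass without control library 1.

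On chromosome 4, which is largely heterochromatic and carries egg-dependent H3K9 methylation, 77 of 91 genes were tested. limma passed 0, where it passed 0.39% of all rows, with 6 at an unadjusted p under 0.05, 4 of them higher, where 8.13% of all rows had one. The median log2 fold change was 0.01, and -0.002 with quantile normalization, and 45 were above 0, where 49.9% of all rows were. Both knockdown libraries lay above both controls for 14, where 19.2% of all rows did so, and below both for 11, where 19.5% did. DESeq2 gave 41 of the 77, and 6112 of all 7690 tested rows, no adjusted p, and those could not pass. edgeR and DESeq2 each passed 1 (0.364% and 0.585% of all rows), unc-13, a synaptic vesicle priming gene, named after its values were seen. It had 48187 and 49771 normalized reads in the control and 52599 and 56296 in the knockdown (log2 fold change 0.15, SE 0.03, adjusted p by limma = 0.059, by edgeR 0.037 and by DESeq2 0.0017).

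**Figure D5:**
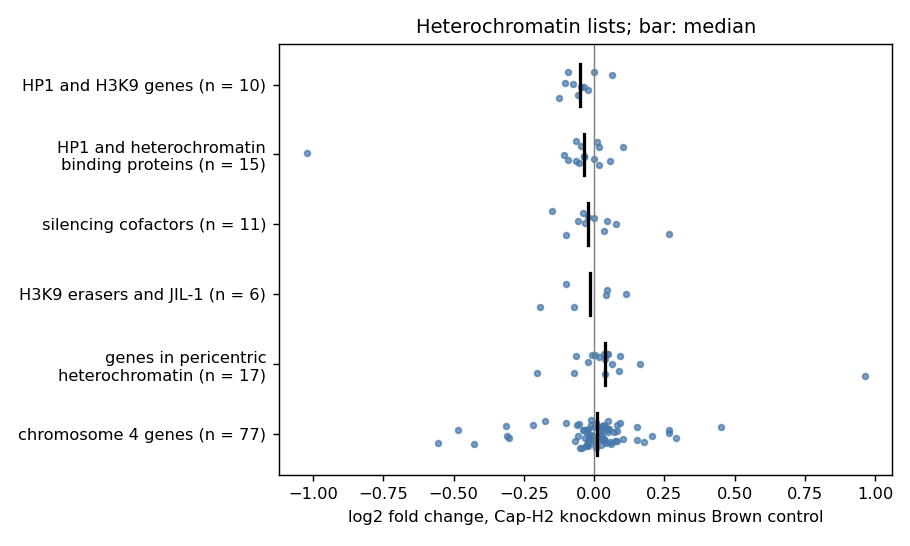
log2 fold changes of the tested genes in each heterochromatin list (x axis, 1 point per gene, with random vertical offsets), and the median of each list as a black bar. The medians lie between -0.05 and 0.04, and the points furthest from 0 are rhi at -1.02 and Yeti at 0.96, with chromosome 4 genes between -0.56 and 0.45. The list labelled H3K9 erasers and JIL-1 also holds the demethylase gene Su(var)3-3 and the corepressor gene CoRest.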

How the data were processed

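Per the submitters' processing notes, reads were processed with fastp, HISAT2 and HTSeq against dm6. Versions, annotation and strand setting are not stated there. Per the labels' protocols, the library kit was stranded and for mRNA. The authors deposited normalized read counts per library, a signal equal to reads divided by a size factor. Dividing by the smallest value returned whole reads for 100% of values (tolerance 0.001 reads). The authors also deposited log2 fold changes with errors, and p-values.

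The 3 special rows of HTSeq (11.5% to 13.9% of reads) stayed out. Of 8806 rows, 8649 matched Ensembl BDGP6.54 (dm6 coordinates) by symbol and 37 by synonym. Testing used limma 3.58.1 in R 4.3.3 (mean trend, two-sided, Benjamini-Hochberg over 7690 rows with a mean of at least 10) on log2(value + 1), which understates changes of low genes. Residual degrees of freedom were 2 and the prior added 14.4. The smallest p that exact permutation of 2 against 2 libraries can give is 0.333. edgeR 4.0.16 and DESeq2 1.42.0 on the recovered reads, other pseudocounts, minima and scalings, robust empirical Bayes, a replicate block and left-out libraries were alternatives. Scripts were tested on simulated data.

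The 10 genes and the lists were chosen with earlier results of these data known. Named from the other lists were called genes, the 3 smallest p and the most abundant per kb; others are named where a statement needed them, after their values were seen.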

Additional observations from a re-analysis of the deposited data

How the results depend on the processing

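The count of 0 of 10 heterochromatin genes called held under all 15 alternatives, though DESeq2 gave 8 of the 10 no adjusted p and could not call those. Calls were also rare over all 7690 rows, at 14 with quantile normalization and 146 with a replicate block, so 0 of 10 says little about these genes. The direction held under all 15 for 8 of the 10. HP1b turned to 0.013 with median centring and 0.016 with quantile normalization, and ranged from -0.048 to 0.045 with libraries left out. Su(var)3-9 ranged from -0.11 to 0.037 with libraries left out. Median centring left 0 of the 10 with an unadjusted p under 0.05 by limma, and quantile normalization left 2, HP1a and G9a.

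Over all rows, 30 calls became 14 with quantile normalization, 59 with robust empirical Bayes and, with libraries left out, 74 without control library 1, 127 without control library 2, 50 without knockdown library 1 and 41 without knockdown library 2. With a replicate block there were 146, of which 0 were among the 10 genes. The numbers are shared labels only, and library 2 minus library 1 correlated at -0.03 between the groups over 7690 rows. DESeq2 gave 6112 rows no adjusted p. The cause of these shifts was not tested.

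Among the other lists, Nipped-B passed in 5 alternatives, Yeti in 4, vig in 1 and the chromosome 4 gene unc-13 in 6. The 10 genes had 476 to 4795 reads per library, and the difference that 2 libraries a group can detect was not computed. Tests with a library left out assume that the lone library of its group varies like the others.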
